A study of Homo sapiens with 5 samples.

Results

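The 28 genes described here encode enzymes of cholesterol synthesis, the proteins that regulate them and carriers of sterols. They were listed by name from the pathway, with earlier results of these data known, and all 28 were among the 20026 gene symbols that had a single row in each table. RNA sequencing of HCT116 cells, an established line from a human colorectal cancer, gave the transcript levels. The libraries came from cells with SP1 knocked down by siRNA, cells with SP3 knocked down and cells with both knocked down, at 1 library each, and they were set against control cells (2 libraries, control 1 and control 2, labelled NC). The siRNA, a small RNA duplex, directs cleavage of its matching mRNA, and the knockdowns were partial. The siRNA sequences, their amounts, the hours of treatment and the lipid content of the medium are not stated in the labels, and neither is whether the control libraries came from separate cultures.

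Cholesterol is built from acetyl-CoA. The mevalonate enzymes make activated isoprenoids, farnesyl diphosphate is joined head to head to squalene, and squalene is closed to lanosterol, which a chain of endoplasmic reticulum enzymes trims to cholesterol. The transcription factors SREBP-1 and SREBP-2, products of SREBF1 and SREBF2, switch on most of these genes when sterols run low: SCAP escorts them to the Golgi for cleavage, and INSIG1 and INSIG2 hold SCAP back when sterols are plentiful. SREBPs are weak activators alone and are known to work with factors bound nearby, among them NF-Y on CCAAT boxes and the zinc finger factors SP1 and SP3 on GC boxes.

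Upstream sequences of the genes that the results below turn on are shown first, because SP1 and SP3 both bind GC-rich promoter sites. EBP, DHCR7, INSIG1, NSDHL and STARD4 were at less than 50% of the control level with the SP1 siRNA, PMVK was higher in every knockdown, and SREBF2 is the pathway's own regulator. Each sequence is the 250 bases before a transcript start, 5′ to 3′ on the gene's strand, from RefSeq on GRCh38.p14, with GC boxes (GGGCGG on either strand) in capitals. In the SREBF2 sequence the match to the consensus sterol regulatory element, the SREBP site, is in capitals too. They lie at chrX:48521558-48521807 on the plus strand (EBP), chr11:71448394-71448643 on the minus strand (DHCR7, the first of 2 starts listed), chr7:155297628-155297877 on the plus strand (INSIG1), chrX:152830813-152831062 on the plus strand (NSDHL, with no GC box), chr5:111512536-111512785 on the minus strand (STARD4), chr1:154936720-154936969 on the minus strand (PMVK) and chr22:41832855-41833104 on the plus strand (SREBF2).
EBP: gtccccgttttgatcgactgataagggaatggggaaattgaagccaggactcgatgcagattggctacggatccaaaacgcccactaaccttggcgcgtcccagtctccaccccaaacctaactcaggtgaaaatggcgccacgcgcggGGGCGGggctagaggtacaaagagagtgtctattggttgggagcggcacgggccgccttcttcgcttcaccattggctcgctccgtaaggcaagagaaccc
DHCR7: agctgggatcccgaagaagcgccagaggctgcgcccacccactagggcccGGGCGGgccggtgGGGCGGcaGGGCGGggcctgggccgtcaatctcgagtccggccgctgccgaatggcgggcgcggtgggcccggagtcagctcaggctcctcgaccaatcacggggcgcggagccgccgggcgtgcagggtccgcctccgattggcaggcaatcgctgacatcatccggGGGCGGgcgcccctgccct
INSIG1: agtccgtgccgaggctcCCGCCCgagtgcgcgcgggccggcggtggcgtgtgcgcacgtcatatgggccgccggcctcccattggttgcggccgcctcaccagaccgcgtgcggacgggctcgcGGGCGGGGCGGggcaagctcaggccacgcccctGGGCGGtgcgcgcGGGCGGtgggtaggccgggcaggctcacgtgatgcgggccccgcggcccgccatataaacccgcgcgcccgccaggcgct
NSDHL: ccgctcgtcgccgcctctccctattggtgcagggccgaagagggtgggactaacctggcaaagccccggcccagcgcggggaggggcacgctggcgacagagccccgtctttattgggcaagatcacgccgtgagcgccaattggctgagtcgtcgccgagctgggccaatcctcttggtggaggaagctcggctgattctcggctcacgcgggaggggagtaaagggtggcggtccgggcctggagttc
STARD4: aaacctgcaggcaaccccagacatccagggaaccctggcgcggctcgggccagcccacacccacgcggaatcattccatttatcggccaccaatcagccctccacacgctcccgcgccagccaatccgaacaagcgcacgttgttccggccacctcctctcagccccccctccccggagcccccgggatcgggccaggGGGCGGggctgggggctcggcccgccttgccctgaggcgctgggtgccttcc
PMVK: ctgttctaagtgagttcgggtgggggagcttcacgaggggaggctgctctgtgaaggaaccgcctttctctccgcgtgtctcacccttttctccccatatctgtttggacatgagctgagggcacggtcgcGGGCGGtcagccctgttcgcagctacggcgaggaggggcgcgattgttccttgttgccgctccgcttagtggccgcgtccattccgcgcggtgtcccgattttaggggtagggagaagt
SREBF2: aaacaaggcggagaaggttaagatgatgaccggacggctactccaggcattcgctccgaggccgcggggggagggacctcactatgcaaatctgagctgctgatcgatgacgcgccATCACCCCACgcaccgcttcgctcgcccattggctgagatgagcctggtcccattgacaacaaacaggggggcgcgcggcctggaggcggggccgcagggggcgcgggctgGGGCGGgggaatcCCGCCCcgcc

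The RefSeq promoter table held 25 of the 28 genes. Taking the first start listed for each, 22 of the 25 (88.0%) had at least 1 GC box in these 250 bases on either strand, against 69.6% of the 9273 promoters of genes tested here and 42.3% of all 27305 in the table. A CCAAT box (CCAAT on either strand) was present in 16 of the 25 (64.0%), against 35.3% of the tested genes' promoters. The consensus sterol regulatory element, sought on both strands, matched in SREBF2 alone among the 25, and in 0.0971% of the tested genes' promoters. No match of 1 motif overlapped a match of another, and the median GC content was 66.8% for the 25 genes and 65.6% for the tested genes. LSS had 6 GC boxes, INSIG1 and NPC2 had 5 each, and GGPS1, LBR and NSDHL had none in this window. Neighbouring GC box matches shared a base at -121 in INSIG1 and at -11 in NPC2, so these counts are of matches rather than of separate sites. A match of letters does not show that a factor binds there.

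**Figure D1:**
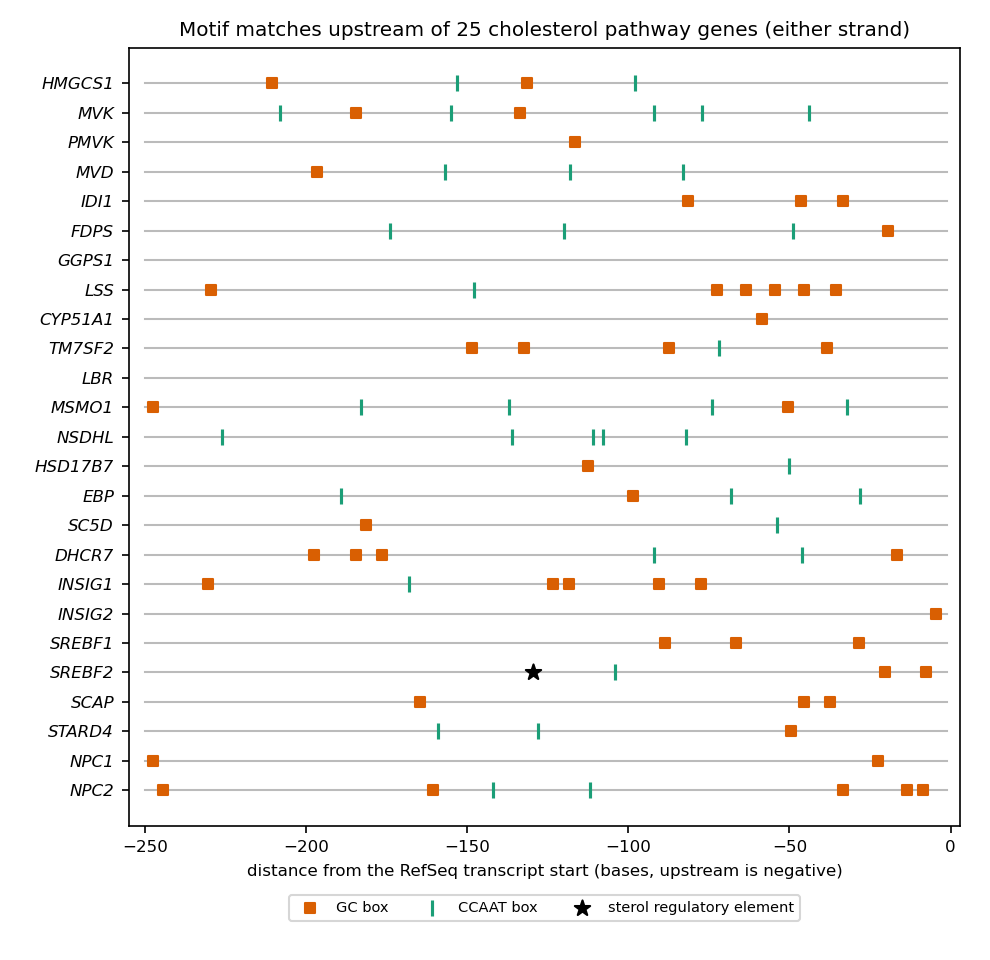
Motif matches in the 250 bases before the transcript start of 25 cholesterol pathway genes. The horizontal axis is the distance from the RefSeq start in bases, each row is a gene, and the marks stand for GC boxes, CCAAT boxes and the sterol regulatory element on either strand. A reader should see that 22 rows hold a GC box, 16 a CCAAT box and 1, SREBF2, a match to the consensus letters of the sterol element. Sites that depart from those letters were not sought.

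The values are FPKM, fragment counts scaled to transcript length and to library size, so levels are per length and can be set beside each other between genes. The libraries held 14678068 to 15970519 counted reads, recovered from the steps of the values, and the 28 genes had 122 to 16884 reads each in every library. The SP1 transcript stood at 42.9% (39.1 to 46.9%) of the control level with the SP1 siRNA and at 43.6% (39.7 to 47.8%) with both (95% interval from the read numbers, counting error only). The SP3 transcript stood at 41.3% (37.7 to 45.2%) with the SP3 siRNA and at 50.7% (46.5 to 55.3%) with both. With the SP3 siRNA alone the SP1 transcript stood at 74.5% (69.3 to 80.04%) (difference -0.41 ± 0.07, limma adjusted p = 0.000166). Epithelial markers (EPCAM, CDH1, 3 keratins and 2 claudins) were present in every library at 3922 to 4576 FPKM summed in the knockdowns and at 4742 and 4744 FPKM in the controls, with none at 0. Within that list KRT18, CLDN4 and CDH1 fell and CLDN7 rose in each knockdown. With the SP1 siRNA, the SP3 siRNA and both, KRT18 stood at 54.8%, 38.1% and 20.6% of control. In the same order CLDN4 stood at 35.2%, 35.8% and 28.9% of control, and CDH1 at 79.0%, 84.3% and 79.0%. CLDN7 stood at 143%, 137% and 155% of control in that order. The 7 leukocyte markers summed to 0.707 to 1.39 FPKM in the 3 knockdown libraries, with TYROBP and CD3E at 0 in all 3, and to 17.9 and 19.6 FPKM in the controls, with none at 0. The fibroblast list summed to 4.39 to 8.34 FPKM in the knockdowns and to 8.88 and 9.03 FPKM in the controls, with LUM at 0 in all 5 libraries, and the endothelial list to 0.139 to 0.236 FPKM and to 0.374 and 0.428 FPKM. The leukocyte sum was lower in each knockdown than in both controls, and its part in the results below was not tested. LYZ, at 11.1 FPKM in control 1 and 12.2 FPKM in control 2, made up most of the control sums. An effect of the siRNAs on these markers and a difference particular to the control libraries cannot be told apart. In bulk RNA, fewer cells of a type and less RNA per cell cannot be told apart.

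All 28 genes were expressed in the control cells. The highest was INSIG1, the sterol-sensing anchor of SCAP, at 329 ± 7.10 FPKM (SD, n = 2), followed by the C4 demethylase MSMO1 at 186 ± 1.90 FPKM (SD, n = 2), the late reductase DHCR7 at 149 ± 2.004 FPKM (SD, n = 2), and squalene synthase FDFT1 at 137 ± 0.899 FPKM (SD, n = 2). The lowest were phosphomevalonate kinase (PMVK) at 5.44 ± 0.776 FPKM (SD, n = 2) and geranylgeranyl diphosphate synthase (GGPS1) at 5.39 ± 0.590 FPKM (SD, n = 2), whose 2 means differed by less than the SD of either. INSIG1 was above 98.6% of the 11725 genes tested and GGPS1 above 41.6%. Between the controls the log2 difference (control 2 minus control 1, on FPKM + 1) ran from -0.25 for PMVK to 0.13 for TM7SF2, with a median of -0.02 beside -0.03 for all tested genes. For 6 of the 28 genes the controls differed by more than counting error allows at the 95% level, among them HMGCS1 at 59.5 FPKM in control 2 and 66.9 FPKM in control 1.

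**Figure D2:**
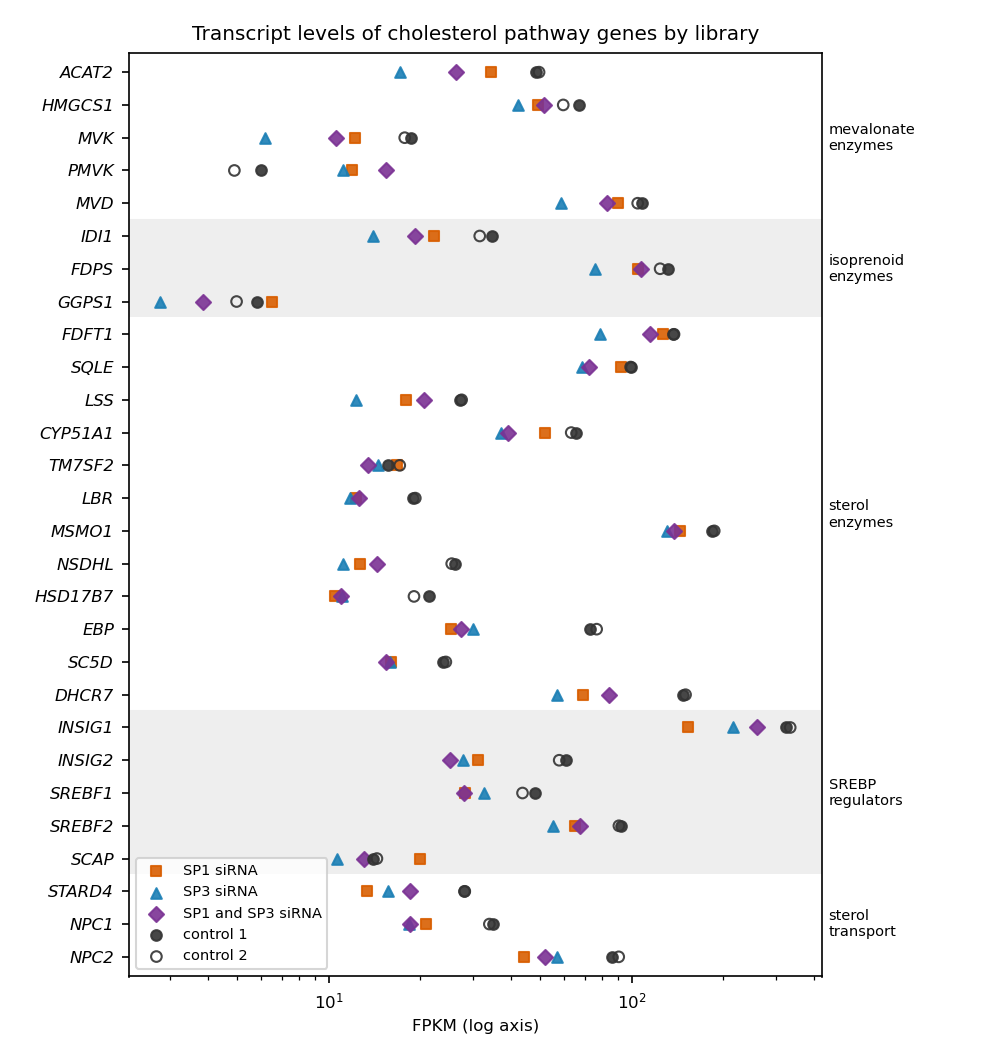
FPKM of the 28 genes in each of the 5 libraries, on a log axis, with genes in pathway order and shaded by role. Squares are the SP1 siRNA, triangles the SP3 siRNA, diamonds both siRNAs, and filled and open circles control 1 and control 2. In most rows the 3 knockdown symbols lie left of both control circles, and PMVK is the row where all 3 lie to the right. How many of all tested genes were separated in this way was not counted.

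The first comparison asked what lowering SP1 does to these transcripts. With the SP1 siRNA, 22 of the 28 genes fell and 2 rose in a test across all genes (limma on log2(FPKM + 1), Benjamini-Hochberg adjusted p under 0.05 over 11725 genes), beside 28.9% of all tested genes called lower and 36.5% called higher. The median log2 difference of the 28 was -0.54, beside 0.06 for all tested genes. The deepest falls were in late sterol enzymes and in sterol regulators and carriers, while FDFT1 and SQLE, the enzymes that make squalene and oxidise it, did not pass the threshold. At least 2-fold lower than each control, with no test, were 5 of the 27 members averaging 5 FPKM or more over the 5 libraries (NSDHL, EBP, DHCR7, INSIG1 and STARD4), beside 5.89% of 7126 genes, and none was 2-fold higher, beside 4.67%.

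EBP, the isomerase that moves the sterol's ring double bond, stood at 25.4 FPKM with the SP1 siRNA, 29.98 with the SP3 siRNA and 27.4 with both, against 72.7 and 76.6 FPKM in the controls. All 3 knockdown libraries were below both controls, and the SP1 siRNA library was the lowest. Its difference with the SP1 siRNA was -1.52 ± 0.07 (SE, adjusted p = 1.04e-10), 33.99% (30.7 to 37.6%) of control. DHCR7, which reduces 7-dehydrocholesterol to cholesterol, stood at 69.1 FPKM with the SP1 siRNA, 56.6 with the SP3 siRNA and 84.02 with both, against 148 and 151 FPKM in the controls, again with each knockdown below both controls. With the SP1 siRNA it differed by -1.10 ± 0.06 (adjusted p = 6.94e-10). NSDHL, which removes carbon from C4 with MSMO1, had 12.7 FPKM with the SP1 siRNA, 11.2 with the SP3 siRNA and 14.4 with both, against 26.1 and 25.5 FPKM in the controls, and it fell by 0.96 on the log2 scale with the SP1 siRNA. HSD17B7, the ketosteroid reductase of the same step, had 10.5 FPKM with the SP1 siRNA, 11.1 with the SP3 siRNA and 11.02 with both, against 21.4 and 19.1 FPKM in the controls, and it differed by -0.88 ± 0.09; it has near-identical pseudogene copies, so its reads may be shared with them, as may those of FDPS.

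INSIG1 had 153 FPKM with the SP1 siRNA, 216 with the SP3 siRNA and 259.8 with both, against 324 and 334 FPKM in the controls. The SP1 siRNA library held the least INSIG1 of the 5, at 46.6% (45.5 to 47.8%) of control (difference -1.09 ± 0.06, adjusted p = 3.48e-10). Its paralog INSIG2 had 31.1 FPKM with the SP1 siRNA, 27.8 with the SP3 siRNA and 25.2 with both, against 60.9 and 57.7 FPKM in the controls, so that every knockdown was below both controls there too, and the SP1 siRNA difference was -0.91 ± 0.07. SREBF1, which encodes SREBP-1, had 28.2 FPKM with the SP1 siRNA, 32.5 with the SP3 siRNA and 27.9 with both, against 48.01 and 43.6 FPKM in the controls, and SREBF2 had 64.9 FPKM with the SP1 siRNA, 55.03 with the SP3 siRNA and 67.5 with both, against 92.2 and 90.8 FPKM in the controls. The 2 SREBP genes fell with the SP1 siRNA by 0.68 and by 0.49 on the log2 scale. SCAP went the other way: it had 20.02 FPKM with the SP1 siRNA, 10.7 with the SP3 siRNA and 13.1 with both, against 14.03 and 14.4 FPKM in the controls. Only its SP1 siRNA value lay above the controls, and it rose there by 0.46 ± 0.08 (adjusted p = 0.000156).

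The sterol carriers fell as well. STARD4, which moves cholesterol between membranes, had 13.4 FPKM with the SP1 siRNA, 15.7 with the SP3 siRNA and 18.6 with both, against 28.05 and 28.1 FPKM in the controls, and it differed by -1.01 ± 0.08 with the SP1 siRNA. NPC2 and NPC1 hand cholesterol out of the lysosome. NPC2 had 44.2 FPKM with the SP1 siRNA, 56.7 with the SP3 siRNA and 51.9 with both, against 86.1 and 90.6 FPKM in the controls (SP1 siRNA difference -0.98 ± 0.06), and NPC1 had 20.99 FPKM with the SP1 siRNA, 18.4 with the SP3 siRNA and 18.5 with both, against 34.8 and 33.9 FPKM in the controls (-0.69 ± 0.07). In each of these 3 genes the knockdown values did not overlap the controls. How many of all tested genes were separated in this way was not counted, here or for the other genes described so.

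The median difference with the SP1 siRNA was -0.35 for the 5 mevalonate enzymes, -0.28 for the 3 isoprenoid enzymes, -0.56 for the 12 sterol enzymes, -0.68 for the 5 regulators and -0.98 for the 3 carriers. The thiolase ACAT2 differed by -0.50 ± 0.07, mevalonate kinase (MVK) by -0.55 ± 0.09, HMG-CoA synthase (HMGCS1) by -0.35 ± 0.07 and mevalonate decarboxylase (MVD) by -0.24 ± 0.06. PMVK, the kinase between MVK and MVD, had 11.9 FPKM with the SP1 siRNA, 11.2 with the SP3 siRNA and 15.5 with both, against 5.98 and 4.89 FPKM in the controls. All 3 knockdown libraries were above both controls, and with the SP1 siRNA PMVK stood at 219.8% (186 to 260.0%) of control (difference 1.01 ± 0.11, adjusted p = 8.46e-07). Of the isoprenoid enzymes, the isomerase IDI1 fell by 0.54 and farnesyl diphosphate synthase (FDPS) by 0.28. From ring closure onward, lanosterol synthase (LSS) differed by -0.57 ± 0.08, the C14 demethylase CYP51A1 by -0.31 ± 0.07, the C14 reductase LBR by -0.60 ± 0.08, MSMO1 by -0.36 ± 0.06 and the C5 desaturase SC5D by -0.55 ± 0.08. The 4 genes that did not pass were GGPS1 (0.24 ± 0.11, adjusted p = 0.0796), FDFT1 (-0.12 ± 0.06, 0.0923), SQLE (-0.11 ± 0.06, 0.133) and the C14 reductase TM7SF2 (0.03 ± 0.09, 0.769). TM7SF2 stood at 102% (90.5 to 115%) of control.

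These p-values rest on the spread of 2 controls, which the single knockdown libraries were assumed to share, so no difference has a replicate on the knockdown side. In an additive model, where the double knockdown serves as a further library of each siRNA and any departure from additivity counts as spread, none of the 28 genes passed for the SP1 siRNA (limma adjusted p from 0.0577 to 0.969, 6 genes at an unadjusted p under 0.05, and 7.66% of all tested genes called). With no filter on low values 16 fell and 1 rose. The share of all genes called under that setting was not worked out, so this count has no background beside it.

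**Figure D3:**
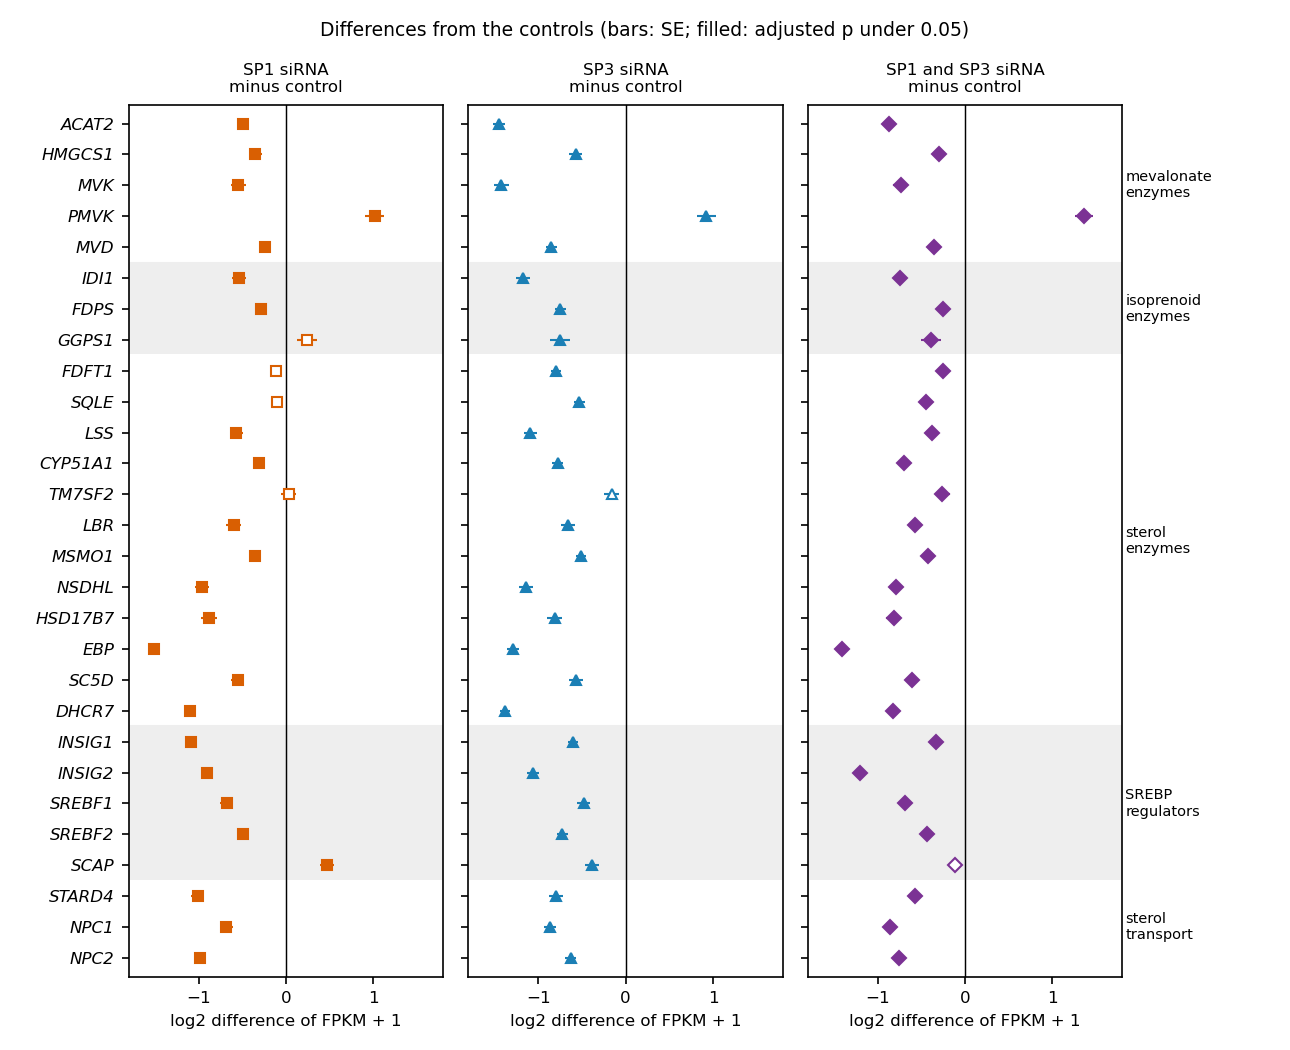
Log2 differences of FPKM + 1 between each knockdown and the mean of the 2 controls, with 1 row per gene and bars of 1 SE from limma. Filled symbols passed an adjusted p of 0.05. The SP1 siRNA panel has 22 filled symbols left of 0 and 2 right of it (PMVK and SCAP), the SP3 siRNA panel 26 and 1, and the panel of both siRNAs 26 and 1 (PMVK in each).

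The second comparison asked the same of SP3. With the SP3 siRNA 26 of the 28 genes fell and 1, PMVK, rose, beside 32% of all tested genes called lower and 29.6% called higher. The median log2 difference was -0.77, beside -0.02 for all tested genes. Falls of at least 2-fold from each control, with no test, numbered 8 of 27 (ACAT2, MVK, IDI1, LSS, NSDHL, EBP, DHCR7 and INSIG2), beside 5.18% of 7126 genes, and none was 2-fold higher, beside 4.14%. TM7SF2 (-0.16 ± 0.09, limma adjusted p = 0.119) did not pass.

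Among the early enzymes, ACAT2 and MVK fell by more than 1 on the log2 scale. ACAT2, which joins acetyl-CoA units, had 34.3 FPKM with the SP1 siRNA, 17.2 with the SP3 siRNA and 26.3 with both, against 48.2 and 49.5 FPKM in the controls. Every knockdown library was below both controls and the SP3 siRNA library was the lowest, at 35.2% (32.00 to 38.6%) of control (difference -1.45 ± 0.07, adjusted p = 2.32e-10). MVK had 12.2 FPKM with the SP1 siRNA, 6.16 with the SP3 siRNA and 10.5 with both, against 18.7 and 17.8 FPKM in the controls, in the same order, and stood at 33.8% (30.1 to 37.9%) of control with the SP3 siRNA (difference -1.43 ± 0.09). IDI1, which makes dimethylallyl diphosphate, had 22.3 FPKM with the SP1 siRNA, 14.02 with the SP3 siRNA and 19.3 with both, against 34.5 and 31.5 FPKM in the controls, and it differed by -1.18 ± 0.08. MVD had 90.2 FPKM with the SP1 siRNA, 58.6 with the SP3 siRNA and 82.98 with both, against 108 and 105 FPKM in the controls (-0.85 ± 0.06), and HMGCS1 had 49.1 FPKM with the SP1 siRNA, 42.2 with the SP3 siRNA and 51.2 with both, against 66.9 and 59.5 FPKM in the controls (-0.57 ± 0.07). For MVD and HMGCS1 too all knockdown values lay under both controls.

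FDPS had 105 FPKM with the SP1 siRNA, 75.8 with the SP3 siRNA and 107 with both, against 132 and 124 FPKM in the controls, and it differed by -0.75 ± 0.06 with the SP3 siRNA. GGPS1, whose product feeds protein prenylation, had 6.52 FPKM with the SP1 siRNA, 2.78 with the SP3 siRNA and 3.84 with both, against 5.80 and 4.97 FPKM in the controls: the SP3 siRNA and double knockdown libraries were below both controls, and the SP1 siRNA library was above them. Its SP3 siRNA difference was -0.75 ± 0.11 (adjusted p = 4.20e-05), from 122 reads in that library. FDFT1 had 127 FPKM with the SP1 siRNA, 78.7 with the SP3 siRNA and 115 with both, against 137 and 138 FPKM in the controls, and it differed by -0.80 ± 0.06. SQLE, a rate-limiting monooxygenase, had 92.4 FPKM with the SP1 siRNA, 68.6 with the SP3 siRNA and 72.4 with both, against 99.8 and 99.2 FPKM in the controls, and it differed by -0.53 ± 0.06. In FDFT1 and SQLE the SP1 siRNA library was nearest to the controls and the SP3 siRNA library the farthest below them.

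LSS, which closes the sterol rings, had 18.1 FPKM with the SP1 siRNA, 12.3 with the SP3 siRNA and 20.7 with both, against 27.1 and 27.5 FPKM in the controls, and it stood at 45.01% (41.97 to 48.2%) of control with the SP3 siRNA (difference -1.09 ± 0.08). CYP51A1 had 51.8 FPKM with the SP1 siRNA, 37.02 with the SP3 siRNA and 39.1 with both, against 65.4 and 63.2 FPKM in the controls (-0.78 ± 0.07), and MSMO1 had 145 FPKM with the SP1 siRNA, 130.5 with the SP3 siRNA and 138 with both, against 185 and 187 FPKM in the controls (-0.51 ± 0.06). Late in the pathway the SP3 siRNA differences were -1.38 ± 0.06 for DHCR7, -1.29 ± 0.07 for EBP, -1.14 ± 0.08 for NSDHL, -0.81 ± 0.09 for HSD17B7, -0.66 ± 0.08 for LBR and -0.57 ± 0.08 for SC5D. LBR had 12.3 FPKM with the SP1 siRNA, 11.8 with the SP3 siRNA and 12.6 with both, against 19.04 and 19.3 FPKM in the controls, and SC5D had 16.1 FPKM with the SP1 siRNA, 15.9 with the SP3 siRNA and 15.5 with both, against 23.9 and 24.4 FPKM in the controls, so in both the 3 knockdowns lay close together and clear of the controls. The regulators fell in 5 of 5 cases, from -1.06 ± 0.07 for INSIG2 and -0.72 ± 0.06 for SREBF2 over -0.60 ± 0.06 for INSIG1 and -0.48 ± 0.07 for SREBF1 to -0.38 ± 0.08 for SCAP. NPC1, STARD4 and NPC2 differed by -0.87 ± 0.07, -0.80 ± 0.08 and -0.63 ± 0.06. PMVK stood at 206% (174 to 243%) of control with the SP3 siRNA (difference 0.92 ± 0.11, adjusted p = 2.43e-06). In the additive model 4 of the 28 genes passed for the SP3 siRNA, all lower (CYP51A1, GGPS1, SCAP and SQLE), with limma adjusted p from 0.0283 to 0.969 over the 28, 12 genes at an unadjusted p under 0.05, and 15.4% of all tested genes called. With no filter on low values 21 fell and none rose, and the share of all genes called under that setting was not worked out.

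In the double knockdown 26 genes fell and 1, PMVK, rose, beside 31.1% of all tested genes called lower and 31.8% called higher. The median log2 difference of -0.57, beside 0.01 for all tested genes, lay between those of the single knockdowns in absolute size. EBP (-1.41 ± 0.07, adjusted p = 2.18e-10) and INSIG2 (-1.20 ± 0.07) were at least 2-fold lower than each control, beside 5.3% of 7126 genes, and PMVK (1.36 ± 0.11, 285% (243 to 335%) of control) at least 2-fold higher, beside 4.38%. SCAP was the gene that did not pass (-0.12 ± 0.08, limma adjusted p = 0.234). TM7SF2, which did not pass in either single knockdown, fell here by 0.26 (adjusted p = 0.0151); it had 16.8 FPKM with the SP1 siRNA, 14.6 with the SP3 siRNA and 13.5 with both, against 15.7 and 17.2 FPKM in the controls. In the additive model INSIG2, NPC1 and CYP51A1 passed as lower and PMVK as higher (limma adjusted p 0.0294 to 0.67 over the 28, 16 at an unadjusted p under 0.05, and 16.8% of all tested genes called), and with no filter on low values 17 fell and none rose. No share of all genes was worked out with no filter.

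**Figure D4:**
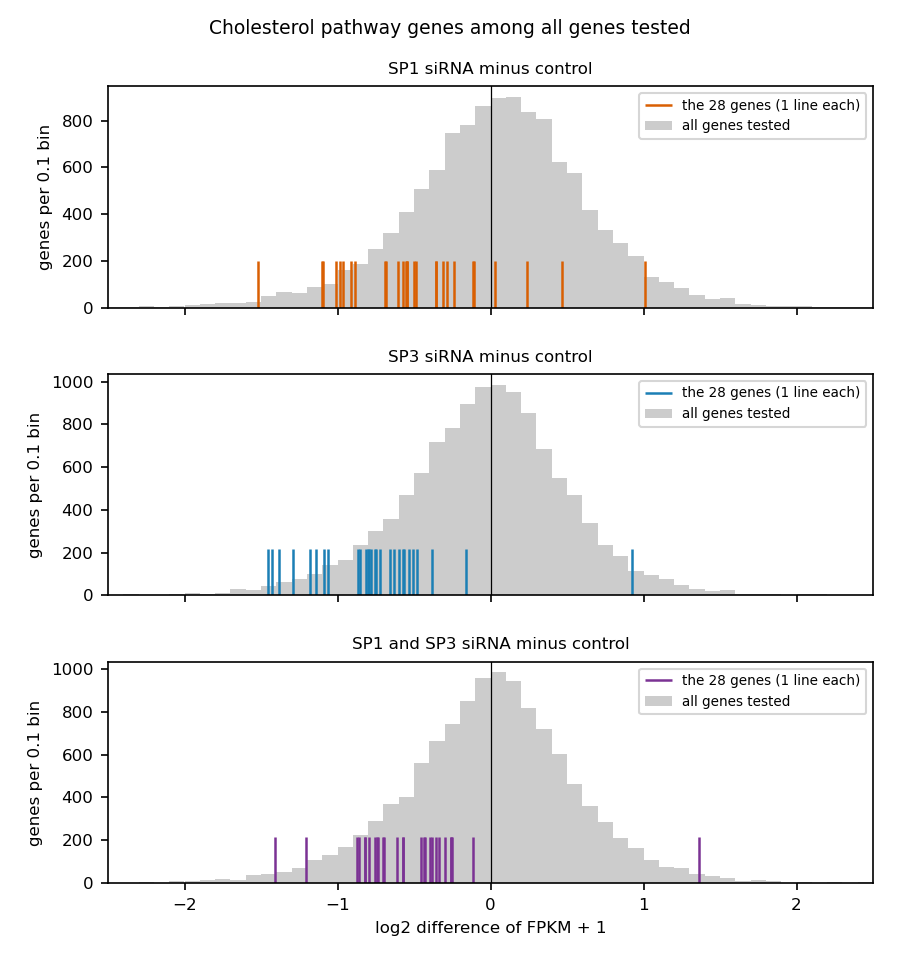
Distribution of the log2 difference from the controls for all 11725 genes tested (grey bars, genes per bin of 0.1; the few beyond ± 2.5 are not drawn) and for the 28 genes (coloured lines, 1 per gene, height arbitrary) in each knockdown. The lines lie mostly left of 0, with medians of -0.54, -0.77 and -0.57, while the medians of all tested genes were 0.06, -0.02 and 0.01.

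Set directly against the SP1 siRNA library, the SP3 siRNA library had 14 of the 28 genes lower and 4 higher, beside 36.2% of all tested genes called lower and 26.5% called higher. This is 1 library against 1 library. Early in the pathway 4 of 5 mevalonate enzymes and 3 of 3 isoprenoid enzymes were lower, among them GGPS1 (-0.99 ± 0.13, limma adjusted p = 1.21e-05), ACAT2 (-0.96 ± 0.08), MVK (-0.88 ± 0.10), IDI1 (-0.63 ± 0.09) and MVD (-0.61 ± 0.07). Of the 12 sterol enzymes 5 were lower, with FDFT1 (-0.68 ± 0.07) first, and EBP was higher (0.23 ± 0.08). SCAP was lower by 0.85, whereas INSIG1 (0.49 ± 0.06), NPC2 (0.35 ± 0.07) and STARD4 (0.21 ± 0.09) were higher with the SP3 siRNA. Over all genes, median-ratio scaling of the libraries shifted this comparison by 0.14 and the SP1 siRNA comparison by -0.10 on the log2 scale; under it the direct comparison had 11 of the 28 lower and 5 higher. The additive model called 2 of the 28 lower, GGPS1 and SCAP, and none higher (4 at an unadjusted p under 0.05), and the absence of a filter on low values left 7 lower and 1 higher. For the scaled, additive and unfiltered counts of this comparison no share of all genes was worked out.

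The next comparisons asked what the second siRNA adds. By limma at the adjusted threshold, none of the 28 was lower with both siRNAs than with the SP3 siRNA and 14 were higher. Of all tested genes 15.1% were called lower and 17.9% higher. At an unadjusted p under 0.05, 17 of the 28 differed, beside 5139 of the 11725 genes tested. Median-ratio scaling gave 1 lower and 11 higher. Shares of all genes were not worked out for the scaled and unfiltered counts in these comparisons. The 14 included all 5 mevalonate enzymes. LSS was higher by 0.71 ± 0.09, MVK by 0.69 ± 0.10, ACAT2 by 0.58 ± 0.08, DHCR7 by 0.56 ± 0.07 and FDFT1 by 0.54 ± 0.07. Against the SP1 siRNA alone, 7 of the 28 genes were lower and 5 higher with both. Of all tested genes 26.4% and 21% were called so, and the counts of the 28 were near these shares. Scaling turned this split to 5 lower and 7 higher. Both comparisons set 1 library against 1 library. GGPS1 (-0.63 ± 0.13), SCAP (-0.58 ± 0.10) and CYP51A1 (-0.39 ± 0.08) were lower, and INSIG1 (0.76 ± 0.06, limma adjusted p = 3.01e-07), STARD4 (0.44 ± 0.09) and PMVK (0.35 ± 0.12) were higher. With no filter on low values limma called none of the 28 in either of these comparisons, with 13 at an unadjusted p under 0.05 against the SP3 siRNA and 12 against the SP1 siRNA. In the additive model, both siRNAs against the SP3 siRNA is the same contrast as the SP1 siRNA against control. It called none of the 28 (6 unadjusted), beside 7.66% of all tested genes. Both siRNAs against the SP1 siRNA is likewise the same contrast as the SP3 siRNA against control (4 lower, beside 15.4% of all tested genes called). The additive model therefore cannot show what the second siRNA adds. It gives 1 effect per siRNA, and under it several of these values turned negative: against the SP3 siRNA LSS (-0.022), MVK (-0.017), ACAT2 (-0.034) and DHCR7 (-0.39), and against the SP1 siRNA INSIG1 (-0.019) and STARD4 (-0.27). By value alone, the double knockdown lay between the single knockdowns for 14 genes, above both for 10 and below both for 4, beside 57.2%, 21.1% and 21.6% of all tested genes.

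An interaction was computed as the log2 difference with both siRNAs less the summed differences with each alone. It was positive past the threshold for 23 of the 28 genes and negative for 1, PMVK, beside 18.5% of all tested genes called positive and 21% called negative. Its median was 0.75 for the 28 and -0.03 for all tested genes. For DHCR7 the double knockdown difference was -0.82 ± 0.06, where the single differences summed to -2.48 (interaction 1.66 ± 0.09, limma adjusted p = 1.47e-08). EBP had -1.41 ± 0.07 beside a sum of -2.81 (interaction 1.40 ± 0.10), and INSIG1 had -0.34 ± 0.06 beside -1.70 (1.36 ± 0.08). NSDHL, LSS, STARD4 and MVK had interactions of 1.31 ± 0.12, 1.28 ± 0.12, 1.24 ± 0.12 and 1.23 ± 0.13. For PMVK the rise with both siRNAs was likewise smaller than the sum of the single rises, 1.94 (interaction -0.57 ± 0.16, adjusted p = 0.0114). GGPS1, SQLE, TM7SF2 and SCAP did not pass (0.12, 0.18, -0.13 and -0.20). The SP3 transcript stood at 50.7% of control with both siRNAs and at 41.3% with the SP3 siRNA alone, a difference that missed the threshold (limma adjusted p = 0.0708), and the SP1 transcript stood at 74.5% with the SP3 siRNA. Their part in the interaction was not tested. With no filter on low values limma called none of the 28 interactions (22 at an unadjusted p under 0.05). Shares of all genes under that setting were not worked out. The control mean enters the interaction with a positive sign, so a shift particular to the control libraries and an interaction cannot be told apart.

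**Figure D5:**
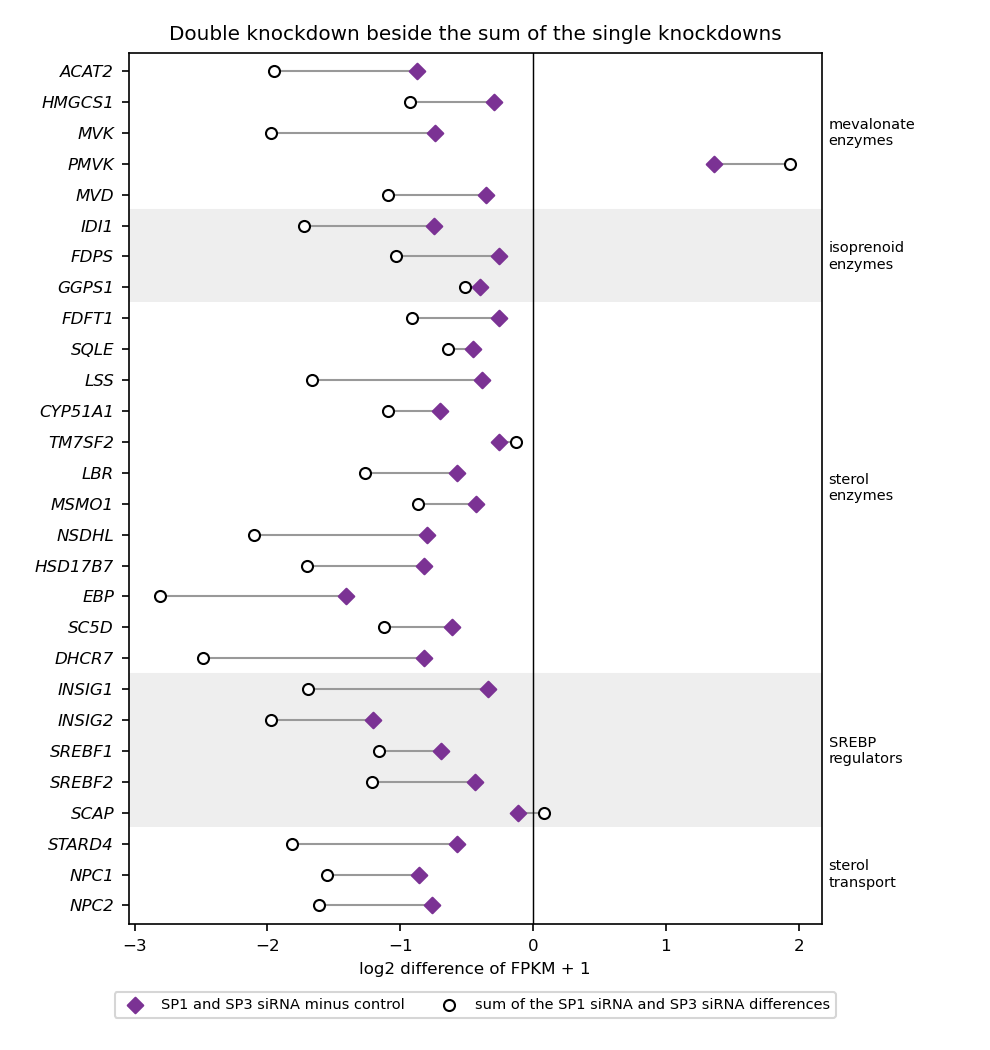
For each of the 28 genes, the log2 difference of the double knockdown from the controls (diamond) and the sum of the log2 differences of the SP1 siRNA and SP3 siRNA libraries (open circle), joined by a line. The diamond is nearer to 0 than the circle in most rows, for instance at -0.82 beside -2.48 for DHCR7 and at 1.36 beside 1.94 for PMVK.

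Falls occurred in genes with and without a GC box in the window. Of the 3 genes with none, NSDHL and LBR fell in each knockdown: the differences with the SP1 siRNA, the SP3 siRNA and both were -0.96 ± 0.08, -1.14 ± 0.08 and -0.79 ± 0.08 for NSDHL and -0.60 ± 0.08, -0.66 ± 0.08 and -0.57 ± 0.08 for LBR. The other, GGPS1, differed by 0.24 ± 0.11 with the SP1 siRNA without passing the threshold, and fell with the SP3 siRNA (-0.75 ± 0.11) and with both (-0.40 ± 0.11). TM7SF2, with 4 GC boxes, differed by 0.03 and -0.16 in the single knockdowns without passing the threshold. PMVK, which rose, and EBP, which fell, had 1 GC box each. Only the window of the first start listed was searched, and GGPS1 had 3 starts listed. The LBR window had a GC content of 36.8%, beside a median of 66.8% for the genes searched. Whether GC boxes bear on the differences was not tested.

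A wider list of 33 sterol and isoprenoid genes outside the 28 was read in the same fit, and 31 of them were tested. With the SP1 siRNA 9 fell and 14 rose (median -0.02), with the SP3 siRNA 12 fell and 8 rose (median -0.08), and with both 11 fell and 7 rose (median -0.10). Of all tested genes 28.9%, 32% and 31.1% were called lower and 36.5%, 29.6% and 31.8% higher in these comparisons, and no test set the list against those shares. TMEM97, an endoplasmic reticulum protein of sterol handling, had 11.4 FPKM with the SP1 siRNA, 5.09 with the SP3 siRNA and 8.44 with both, against 26.2 and 23.8 FPKM in the controls, so each knockdown was below both controls, and its differences of -1.07, -2.09 and -1.46 were the largest falls of the list in each knockdown among genes averaging 5 FPKM or more. SCARB1, the receptor that takes up HDL cholesterol, had 79.1 FPKM with the SP1 siRNA, 30.1 with the SP3 siRNA and 46.4 with both, against 99.2 and 97.2 FPKM in the controls, and it fell by 1.67 with the SP3 siRNA, fell by 1.07 with both and fell by 0.31 with the SP1 siRNA. Of 10 tested genes of the isoprenoid branches 6 rose and 1 fell with the SP1 siRNA, 5 rose and 0 fell with the SP3 siRNA, and 5 rose and 1 fell with both, beside the same shares over all tested genes. FNTA, a subunit of protein farnesyl and geranylgeranyl transferases, had 55.9 FPKM with the SP1 siRNA, 29.1 with the SP3 siRNA and 38.4 with both, against 26.01 and 24.99 FPKM in the controls, and it rose by 1.10 with the SP1 siRNA, by 0.18 with the SP3 siRNA and by 0.57 with both. RABGGTB, which prenylates RAB proteins, rose by 0.82 with the SP1 siRNA, and the lysosomal acid lipase LIPA by 0.71. LIPA fell with the SP3 siRNA: it had 44.02 FPKM with the SP1 siRNA, 19.8 with the SP3 siRNA and 27.3 with both, against 27.6 and 25.4 FPKM in the controls, a difference of -0.40 with the SP3 siRNA (limma adjusted p = 0.000293). DHDDS, of dolichol synthesis, fell by 0.95 and FAF2, which acts in endoplasmic reticulum degradation, by 0.66 with the SP1 siRNA. DHDDS also fell with both, by 0.47, and FAF2 fell by 0.24 with the SP3 siRNA and by 0.28 with both. With the SP3 siRNA the oxysterol-binding protein OSBP rose by 0.70 (and by 0.56 with the SP1 siRNA), RABGGTA by 0.47 and NUS1 by 0.33, while UBE2G2, a ubiquitin-conjugating enzyme, fell by 0.55 (and by 0.21 with both). With both, RABGGTA rose by 0.49 and OSBP by 0.22.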

How the data were processed

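RNA was measured by sequencing in 5 HCT116 libraries. The authors deposited 1 table per library with FPKM values; the submitters' processing notes name Cufflinks 2.2.1, HTSeq 0.9.1, HISAT2 2.0.5 and Trimmomatic 0.36 without roles. The genome build, annotation, filters and strand setting were not given in the sources used here. With no strand known, overlapping and antisense genes cannot be told apart. Of 20030 rows, 4 with repeated symbols were left out.

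Read numbers were recovered from the steps of the FPKM values, with GENCODE 29 transcript lengths setting the scale: 99.98% of 17121 genes gave whole reads within 0.02 reads in all libraries (2% after a jitter of 1%). The length found can be a fraction of the true one, so read numbers are lower limits. They served for depth and for exact 95% binomial intervals of ratios, which cover counting error only.

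The test was limma 3.58.1 (R 4.3.3, trend) on log2(FPKM + 1), which understates changes of low genes, over 11725 genes that reached 1 FPKM in any library. It had 1 mean per group, 1 residual degree of freedom and 13.95 prior degrees of freedom. Alternatives were a pseudocount of 0.1, other filters, median-ratio scaling, an additive model and each control left out. Among these, shares of all tested genes called were worked out only for the additive model's comparisons with the controls. For none of them was a share at an unadjusted p worked out. Genes named outside the 28 were SP1 and SP3 and, of the wider list, the 3 largest rises and falls past the threshold per knockdown at a mean of at least 5 FPKM. Of these, 1 gene is not reported here. The members and lists were chosen with earlier results of these data known. The labels name no separate cultures, so p-values reflect the spread of these libraries alone, which may be technical. Motifs were sought on both strands of the 250 bases before RefSeq starts.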

Additional observations from a re-analysis of the deposited data

Results flagged for a closer look

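Limma's interaction term sets the SP3 siRNA difference with the SP1 siRNA against that without it, from 1 library per knockdown. It passed an adjusted p under 0.05 for 24 of the 28 genes. Of all tested genes 18.5% were called positive and 21% negative. A shift particular to the control libraries and an interaction cannot be told apart. Among mevalonate and isoprenoid enzymes the interaction (log2) was 1.08 for ACAT2, 0.63 for HMGCS1, 1.23 for MVK, -0.57 for PMVK, 0.73 for MVD, 0.98 for IDI1 and 0.78 for FDPS. Among sterol enzymes it was 0.66 for FDFT1, 1.28 for LSS, 0.39 for CYP51A1, 0.69 for LBR, 0.44 for MSMO1, 1.31 for NSDHL, 0.88 for HSD17B7, 1.40 for EBP, 0.51 for SC5D and 1.66 for DHCR7. Among regulators and carriers it was 1.36 for INSIG1, 0.77 for INSIG2, 0.47 for SREBF1, 0.78 for SREBF2, 1.24 for STARD4, 0.69 for NPC1 and 0.85 for NPC2. With no filter on low values none of the 24 passed.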

How the results depend on the processing

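No paired analysis was possible because the 3 knockdowns have 1 library each and share no replicate number with the controls in the labels. A pseudocount of 0.1 kept the direction and the side of the threshold for 195 of 196 differences, and a mean of at least 5 FPKM kept every count of called genes within 1.5 times. With no filter on low values the counts of higher and lower genes were 1 and 16 with the SP1 siRNA, 0 and 21 with the SP3 siRNA, 0 and 17 with both, 0 and 0 for both siRNAs against the SP1 siRNA, 0 and 0 against the SP3 siRNA, 1 and 7 for the SP3 siRNA against the SP1 siRNA, and 0 and 0 for the interaction; the cause was not tested. Shares of all genes called were not worked out with no filter. In the additive model the same counts were 0 and 0 with the SP1 siRNA, 0 and 4 with the SP3 siRNA, 1 and 3 with both, 0 and 4 against the SP1 siRNA, 0 and 0 against the SP3 siRNA and 0 and 2 for the direct comparison. The counts against the SP1 siRNA repeat those with the SP3 siRNA, because that model makes the contrasts the same. Those against the SP3 siRNA repeat the counts with the SP1 siRNA in the same way. Without control replicate 1 or 2 in that model they ran from 0 to 0 higher in the single knockdowns and between knockdowns, from 0 to 1 higher with both, and from 0 to 1 lower with the SP3 siRNA and against the SP1 siRNA, and were 0 lower elsewhere. Leaving out a control in the main model gave values with no test, because no residual degrees of freedom were left; 1 difference changed sign, that of TM7SF2 with the SP1 siRNA.

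By construction the additive model gives 1 effect per siRNA, and signs turned: with the SP1 siRNA to 0.077 for MVD, 0.050 for FDPS, 0.17 for FDFT1 and -0.026 for TM7SF2; for both siRNAs against the SP1 siRNA to -0.30 for HMGCS1, -0.42 for FDPS, -0.54 for LSS, -0.36 for LBR, -0.58 for NSDHL, -0.44 for HSD17B7, -0.69 for EBP, -0.67 for DHCR7, -0.019 for INSIG1, -0.39 for SREBF2, -0.27 for STARD4 and -0.26 for NPC2; and against the SP3 siRNA to -0.034 for ACAT2, -0.084 for HMGCS1, -0.017 for MVK, -0.12 for IDI1, -0.028 for SQLE, -0.022 for LSS, -0.14 for CYP51A1, -0.31 for LBR, -0.17 for MSMO1, -0.40 for NSDHL, -0.39 for DHCR7, -0.51 for INSIG1, -0.16 for SREBF2, -0.48 for STARD4, -0.39 for NPC1 and a median of -0.15. Median-ratio scaling gave 1 gene lower with both siRNAs than with the SP3 siRNA and turned the median against the SP1 siRNA to 0.061, MSMO1, SC5D and SREBF1 there to 0.031, 0.039 and 0.083, NPC1 against the SP3 siRNA to -0.0601, TM7SF2 with the SP1 siRNA to -0.084, and in the direct comparison PMVK, LBR, MSMO1, SC5D and INSIG2 to 0.067, 0.099, 0.019, 0.15 and 0.00905, none of which had passed the threshold.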
